A study of Mus musculus with 12 samples.

Results

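Arnt2, Creb5, Foxp2 and Hdac5, 4 genes that encode regulators of transcription, were read in every library of a study of mural granulosa cells (MGCs) and cumulus cells. They were chosen because their transcripts were lower in knockout than in control MGCs, so their difference between genotypes in MGCs is given here as a description, without a test. All 4 were listed in both tables of expression values, among 26382 genes that the tables have in common. The 12 libraries came from WT mice and from Sphk1/2gc-/- mice (Sphk1-/-; Sphk2 fl/fl; Fshr-Cre), all at 2 h after human chorionic gonadotropin (hCG), a hormone with luteinizing hormone (LH) activity that starts ovulation, with 3 libraries for each genotype and cell type. The Sphk1/2gc-/- mice lacked sphingosine kinase 1 in the whole body, and Fshr-Cre, driven by the promoter of the follicle-stimulating hormone receptor, removed sphingosine kinase 2 in granulosa cells. The labels give no age, and the study's methods describe juvenile females that were primed with equine chorionic gonadotropin to grow follicles before hCG was given.

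MGCs line the wall of the antral follicle and carry most of its LH receptors, whereas cumulus cells surround the oocyte. ARNT2 is a bHLH-PAS protein that pairs with partners such as hypoxia-inducible factors, SIM1 and the aryl hydrocarbon receptor and binds DNA as the general member of the pair, a role it shares with ARNT. CREB5 is a bZIP factor related to ATF2 and ATF7 that binds cAMP response elements (CREs). FOXP2 is a forkhead repressor best known from the brain, with FOXP1 and FOXP4 as partners in dimers. HDAC5 is a class IIa histone deacetylase that represses MEF2 factors, and phosphorylation by protein kinase D, CaMK or SIK kinases creates docking sites for 14-3-3 proteins, which carry it out of the nucleus.

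The 4 genes lie at separate places in the genome (GRCm38, GENCODE M21 annotation). Arnt2 (ENSMUSG00000015709) lies on the minus strand at chr7:84246278-84410176, with 26 exon blocks. Creb5 (ENSMUSG00000053007) lies on the plus strand at chr6:53287270-53700376, with 23 exon blocks. Foxp2 (ENSMUSG00000029563) lies on the plus strand of the same chromosome at chr6:14901349-15441977, with 27 exon blocks. Hdac5 (ENSMUSG00000008855) lies on the minus strand at chr11:102194432-102230166, with 20 exon blocks. Short annotated genes overlap exons of 3 of them. They are Gm30873 on the other strand of Arnt2, Gm25818 within Creb5 and Mir8101 within Hdac5. The labels do not say that the library kit marked the strand, so reads of Arnt2 and Gm30873 cannot be told apart.

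Promoter sequences are shown before the expression values. Promoter windows of 3 of the 4 genes were taken from RefSeq (GRCm38.p6), with 2 annotated starts for Creb5. Each window holds 250 bases before the start and the first 30 bases after it, is written 5′ to 3′ on the gene's strand, and has in capitals the full CRE (TGACGTCA), the CRE core (TGACG or CGTCA), the E-box CACGTG that ARNT proteins can bind, and the MEF2 core TATTTTTA. Foxp2 had no entry.
Arnt2, minus strand, chr7:84410009-84410288: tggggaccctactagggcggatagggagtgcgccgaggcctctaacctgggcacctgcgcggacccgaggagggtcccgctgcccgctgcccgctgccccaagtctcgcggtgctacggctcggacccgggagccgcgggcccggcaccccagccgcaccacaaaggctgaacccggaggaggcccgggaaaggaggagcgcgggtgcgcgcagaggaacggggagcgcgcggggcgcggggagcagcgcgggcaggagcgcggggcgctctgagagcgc
Creb5, first start, plus strand, chr6:53287053-53287332: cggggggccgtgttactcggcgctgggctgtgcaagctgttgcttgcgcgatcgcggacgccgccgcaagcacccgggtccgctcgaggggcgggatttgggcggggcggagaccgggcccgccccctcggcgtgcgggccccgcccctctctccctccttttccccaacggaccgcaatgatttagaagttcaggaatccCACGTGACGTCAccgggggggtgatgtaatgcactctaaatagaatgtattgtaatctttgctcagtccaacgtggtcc
Creb5, second start, plus strand, chr6:53573124-53573403: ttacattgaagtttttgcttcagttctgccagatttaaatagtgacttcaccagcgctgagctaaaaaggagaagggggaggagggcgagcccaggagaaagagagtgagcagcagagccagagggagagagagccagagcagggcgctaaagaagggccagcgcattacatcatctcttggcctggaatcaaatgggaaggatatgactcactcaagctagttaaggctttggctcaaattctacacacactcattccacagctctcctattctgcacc
Hdac5, minus strand, chr11:102230143-102230422: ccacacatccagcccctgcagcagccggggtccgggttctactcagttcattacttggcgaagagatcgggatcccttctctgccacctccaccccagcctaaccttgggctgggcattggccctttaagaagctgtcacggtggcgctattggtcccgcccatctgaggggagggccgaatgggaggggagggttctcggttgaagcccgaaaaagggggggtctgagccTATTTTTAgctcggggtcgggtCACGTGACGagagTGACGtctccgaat
The first Creb5 window held a full CRE whose first base was 45 bases before the start, and an E-box began 49 bases before the start and overlapped it. Of 32851 windows of this length, 1.74% held the full CRE and 6.79% held the E-box on either strand. The Hdac5 window held a MEF2 core that began 19 bases before the start, a sequence found in 2.6% of all windows (TATTTTTA or TAAAAATA). Counted from the Hdac5 start as base 1, an E-box began at base 4 and CRE cores at bases 8 and 17, the first of which overlaps the E-box. The CRE core was in 19.9% of all windows. The Arnt2 window and the second Creb5 window held none of these letters, and the forkhead core TGTTTAC or GTAAACA, found in 3.49% of all windows, was in none of the 4. The Arnt2 window had 76.1% G and C against a median of 52.5% over all windows.

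The libraries held 16100361 to 19761603 reads, as read from the step of the expression values, which are fragments scaled to exon length and library size (FPKM). Within a cell type, libraries correlated across genes at 0.912 to 0.986, on log2(FPKM + 1). The lowest correlations among MGCs were those of Sphk1/2gc-/- library 3, at 0.912 to 0.939 with the other MGC libraries. In cumulus WT library 3, 83.1% of the listed genes were above 0, against 56.7% to 58.2% in the other cumulus libraries. The labels do not state that libraries of a group came from separate mice, so p-values measure only the spread between these libraries. The 3 WT MGC libraries had 1.68, 1.88 and 0.460 FPKM of Sphk1, and those labelled Sphk1/2gc-/- had 0.432, 0.557 and 0.104 FPKM. In cumulus cells WT libraries had 0.0699 to 0.0954 FPKM, and libraries that carry the knockout label had 0.0778 to 0.557 FPKM. Sphk2 ranged from 5.18 to 5.86 FPKM among WT MGC libraries and from 4.51 to 6.29 FPKM among knockout ones, so the level over the whole gene does not separate the genotypes. Only part of Sphk2 was floxed, and reads from the rest of the gene check nothing, whereas the Sphk1 reads in cumulus cells were not fewer under the knockout label. The genotypes below are therefore those of the labels.

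Hdac5 was the most abundant of the 4 in MGCs. Its WT libraries held 13.4, 13.8 and 8.04 FPKM (1945, 2031 and 1190 reads), against 5.58, 5.11 and 4.90 FPKM in the MGC libraries labelled Sphk1/2gc-/- (830, 760 and 777 reads). The genotypes did not overlap, and the lowest WT library was 44.1% above the highest knockout library. WT MGCs averaged 11.8 ± 3.22 FPKM and knockout MGCs 5.19 ± 0.348 FPKM (SD, n = 3), a ratio of 2.26.

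Arnt2 had the same order of WT libraries. The WT MGC libraries held 5.49, 6.31 and 2.81 FPKM (696, 814 and 364 reads), against 1.87, 1.97 and 1.76 FPKM in knockout MGCs (244, 257 and 244 reads). Again the genotypes did not overlap, and the lowest WT library was 42.3% above the highest knockout library. WT MGCs averaged 4.87 ± 1.83 FPKM, against 1.87 ± 0.109 FPKM in knockout MGCs (SD, n = 3), for a ratio of 2.61.

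Foxp2 and Creb5 were less clearly apart. For Foxp2, WT MGCs had 3.18, 3.52 and 1.36 FPKM (856, 965 and 374 reads), against 1.35, 1.39 and 1.06 FPKM in knockout MGCs (373, 385 and 312 reads). WT library 3 lay inside the knockout range, so Foxp2 was the member whose genotypes overlapped. The WT mean was 2.68 ± 1.16 FPKM, against 1.26 ± 0.182 FPKM in knockout MGCs (SD, n = 3), a ratio of 2.12. For Creb5, the least abundant member, WT MGCs had 1.45, 1.12 and 0.590 FPKM (598, 472 and 249 reads), against 0.585, 0.491 and 0.241 FPKM in knockout MGCs (248, 208 and 109 reads). WT library 3 was only 0.937% above knockout library 1, with 249 reads (95% exact Poisson interval 219 to 282, counting error only) against 248 reads (218 to 281). The WT mean was 1.05 ± 0.434 FPKM, against 0.439 ± 0.178 FPKM in knockout MGCs (SD, n = 3), a ratio of 2.40.

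**Figure D1:**
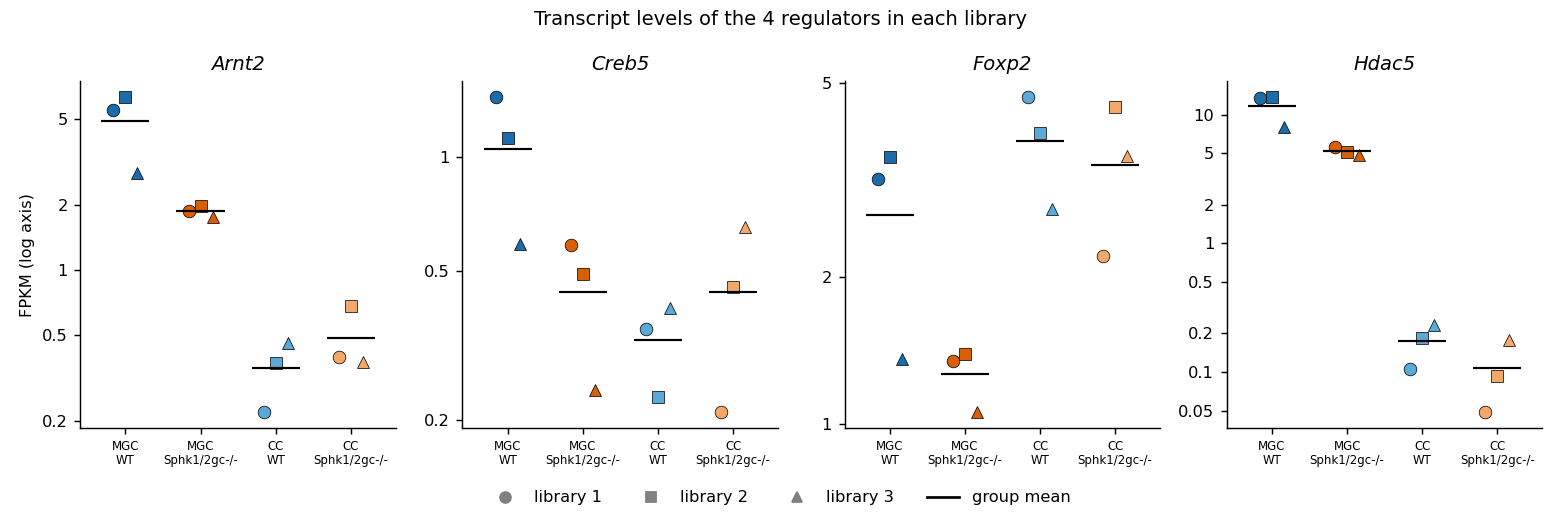
FPKM of the 4 regulators in each library on a log axis that differs between panels, by cell type and genotype (CC, cumulus cells), with the shape giving the library number and the line the group mean. In MGCs every member is lowest among WT libraries in library 3, and Hdac5 and Arnt2 in cumulus cells lie below all MGC libraries.

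On the log2(FPKM + 1) scale, which understates changes of low transcripts, knockout minus WT MGCs was -1.01 for Hdac5 (SE 0.215), -0.98 for Arnt2 (SE 0.261), -0.65 for Foxp2 (SE 0.271) and -0.50 for Creb5 (SE 0.213). Of 15279 genes tested in MGCs, 1.42% had a lower value than Hdac5 and 8.02% a lower value than Creb5. The 3 members without overlap were Arnt2, Creb5 and Hdac5. Every knockout library was below every WT library for 9.17% of the genes tested. A log2 difference of -1 or below, reached by Hdac5, was found in 1.46% of the genes. These shares stand beside the members as background only, since the members were picked from this contrast. In it, 6 genes passed an adjusted p of 0.05 with a fold change of 2 or more (0.0393%, limma with Benjamini-Hochberg adjustment). With the replicate number as a block, 3 genes passed (2 higher and 1 lower in knockout).

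The size of the difference depended on WT library 3. It stood at 59.1% of the mean of WT libraries 1 and 2 for Hdac5, 47.6% for Arnt2, 45.9% for Creb5 and 40.5% for Foxp2. Library by library, knockout MGCs with the number 1 held 34.1% of the WT level of Arnt2, those with the number 2 held 31.3%, and those with the number 3 held 62.5%. For Foxp2 the same shares were 42.4%, 39.5% and 77.8%, and for Hdac5 they were 41.5%, 37.1% and 60.9%. Creb5 alone held a like share in each, at 40.4%, 43.7% and 40.8%. Without WT library 3 the log2 differences were -1.26 for Arnt2, -0.67 for Creb5, -0.94 for Foxp2 and -1.24 for Hdac5. Without library 3 of both genotypes they were -1.24, -0.57, -0.87 and -1.20. The weakest values were -0.79 for Arnt2, -0.47 for Foxp2 and -0.88 for Hdac5, all without WT library 2, and -0.36 for Creb5 without WT library 1. For Arnt2, Creb5 and Hdac5, whose genotypes did not overlap, leaving out libraries could not turn the sign.

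**Figure D2:**
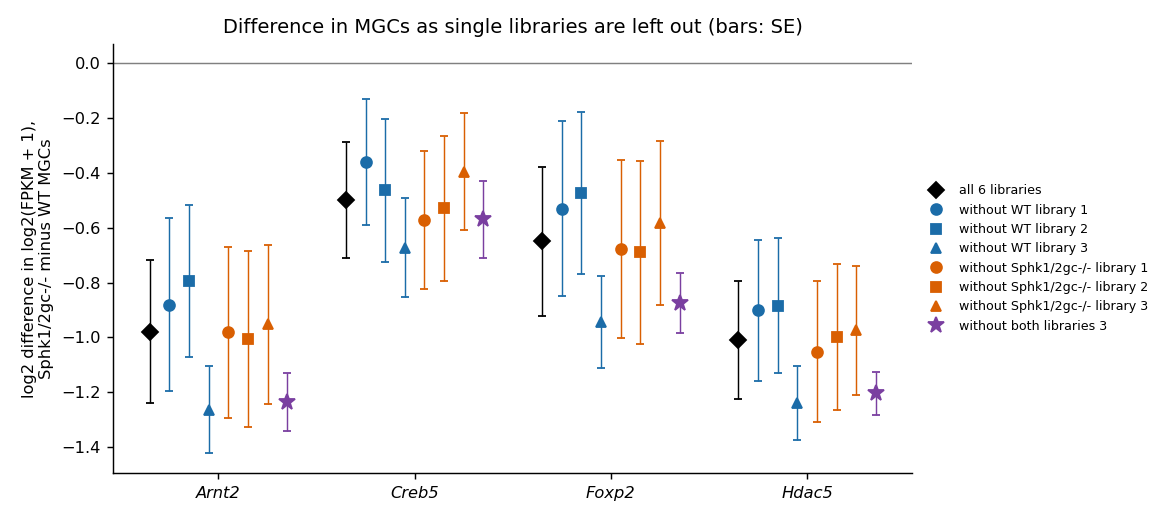
Difference in log2(FPKM + 1) between Sphk1/2gc-/- and WT MGCs for each member, with all 6 libraries and as libraries are left out (bars, SE from limma). All values are below 0, and those without WT library 3, from -0.67 for Creb5 to -1.26 for Arnt2, are the farthest from 0 among the fits that leave out 1 library.

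Summed levels of markers of some other cell types had separate ranges in the MGC groups, though 0 of the single markers passed the test (limma, adjusted p of 0.05) with all 6 libraries. An unadjusted limma p of 0.05 or less was found for 3 of 6 endothelial, 4 of 7 stroma and pericyte and 2 of 7 leukocyte markers tested. The counts were 1 of 4 mural granulosa markers, 1 of 6 cumulus markers and 0 in the other 4 marker lists, against 9.2% of all genes tested. The summed level of 6 endothelial markers was 12.4 to 16.1 FPKM in WT against 7.94 to 9.76 FPKM in knockout MGCs, and 6 of 6 had a negative difference. Of 7 stroma and pericyte markers 6 had a negative difference and 1 (Pdgfra) a positive one. Their sum was 88.7 to 129 FPKM in WT against 59.6 to 83.8 FPKM in knockout MGCs. For 8 leukocyte markers it was 161 to 306 FPKM in WT against 20.4 to 107 FPKM in knockout MGCs, mostly from S100a8, S100a9 and Lyz2, while 4 of the 7 tested leukocyte markers had a negative difference and 3 (Adgre1, Csf1r, Cd68) a positive one. For 4 mural granulosa markers (Lhcgr, Nppc, Cyp11a1, Star) the sum was 1415 to 1723 FPKM in WT and 427 to 921 FPKM in knockout MGCs. Of these, 3 had a negative difference and Nppc a positive one (means of 55.5 and 66.5 FPKM). Star had means of 830 and 293 FPKM, and Cyp11a1 378 and 133 FPKM. In libraries 1 and 2 Lhcgr was at 249 and 213 FPKM in WT against 246 and 210 FPKM in knockout MGCs. The 5 erythrocyte markers summed to 262 to 404 FPKM in WT against 30.6 to 291 FPKM in knockout MGCs. The sums of 8 general granulosa markers overlapped, at 8863 to 15079 FPKM in WT against 11014 to 12608 FPKM in knockout MGCs, as did those of 5 theca markers, at 1657 to 3742 and 1941 to 2442 FPKM, and of 7 oocyte markers, at 35.1 to 87.5 and 25.7 to 110 FPKM. No marker of these lists was at 0 in either MGC group. WT library 3, which was lowest in the 4 members, had the highest stroma (129 FPKM) and endothelial (16.1 FPKM) sums of the 6 MGC libraries and the lowest WT leukocyte sum (161 FPKM). The 6 genes listed as cumulus markers summed to 1174 to 1474 FPKM in WT MGCs against 329 to 724 FPKM in WT cumulus cells. Tnfaip6 (means of 858 and 188 FPKM), Ptgs2 (312 and 102 FPKM), Slc38a3 and Npr2 were higher in WT MGCs. Has2 (15.3 and 55.4 FPKM) and Ptx3 (49.9 and 144.5 FPKM) were higher in WT cumulus cells. The 6 genes summed to 289 FPKM in Sphk1/2gc-/- MGC library 3 against 1971 and 2266 FPKM in the other 2 knockout libraries. The part of these transcripts in the members' values was not tested, and fewer cells of a type and less RNA per cell cannot be told apart in bulk libraries.

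In cumulus cells, whose libraries did not enter the choice of the members, none of the 4 was shown to differ between genotypes. Foxp2, the one member above the filter there, was at 4.69, 3.95 and 2.76 FPKM in WT (1233, 1160 and 792 reads) and at 2.21, 4.47 and 3.54 FPKM in knockout cumulus cells (679, 1443 and 1109 reads). The genotypes overlapped widely, with means of 3.80 ± 0.972 and 3.40 ± 1.14 FPKM (SD, n = 3). The log2 difference was -0.14 (SE 0.237, 95% interval -0.68 to 0.41), and limma gave an adjusted p of 0.704. It turned to 0.075 without knockout library 1, and the adjusted p was then 0.800. The 95% interval with all 6 libraries contains the Foxp2 difference in MGCs (-0.65), so a drop of that size in cumulus cells is not excluded. Of 12205 genes tested in cumulus cells, 22.3% passed an adjusted p of 0.05, and 8.04% also had a fold change of 2 or more. These shares say nothing of Foxp2 itself.

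Arnt2, Creb5 and Hdac5 had a mean below 0.5 FPKM in both genotypes of cumulus cells and were not tested. Arnt2 was at 0.218, 0.369 and 0.459 FPKM in WT (27, 51 and 62 reads) and 0.394, 0.678 and 0.373 FPKM in knockout cumulus cells (57, 103 and 55 reads). Creb5 was at 0.350, 0.231 and 0.398 FPKM in WT (141, 104 and 175 reads) and 0.210, 0.453 and 0.654 FPKM in knockout (99, 224 and 314 reads). Hdac5 was at 0.106, 0.184 and 0.233 FPKM in WT (15, 29 and 36 reads) and 0.0484, 0.0922 and 0.178 FPKM in knockout cumulus cells (8, 16 and 30 reads). All 3 overlapped between genotypes. All libraries lay above the floor of 3 reads, and the 8 reads of Hdac5 in knockout library 1 have a 95% exact Poisson interval of 3.45 to 15.8 reads. Without the filter, limma gave adjusted p of 0.626 for Arnt2, 0.693 for Creb5 and 0.578 for Hdac5, with log2 differences of 0.13, 0.11 and -0.09.

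Side by side, Hdac5 and Arnt2 were high in MGCs and low in cumulus cells, Creb5 was low in both cell types and Foxp2 had the higher mean in cumulus cells, where the WT groups overlapped and the knockout groups did not. The mean level in WT MGCs was 67.4 times that in WT cumulus cells for Hdac5, 14.0 times for Arnt2 and 3.23 times for Creb5, whereas the Foxp2 mean in WT cumulus cells was 1.42 times that in MGCs. The tables may have been normalized separately, so these ratios were not tested. In knockout cells the ratio of MGCs to cumulus cells was 48.9 for Hdac5, 3.88 for Arnt2 and 0.999 for Creb5, and the Foxp2 mean in cumulus cells was 2.69 times that in MGCs. On the log2(FPKM + 1) scale the WT difference, MGCs minus cumulus cells, was 3.44 for Hdac5, and 2.81% of 15869 genes were as high or higher. It was 2.12 for Arnt2, with 11.7% of genes as high or higher, 0.63 for Creb5 and -0.38 for Foxp2, against a median of 0.55 over all genes.

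The order of the 4 groups differed between members. Hdac5 ran from WT MGCs through knockout MGCs and WT cumulus cells to knockout cumulus cells, and only the last 2 overlapped. For Arnt2 the order was WT MGCs, knockout MGCs, knockout cumulus cells and WT cumulus cells, and again only the cumulus groups overlapped. Creb5 was highest in WT MGCs, and every neighbouring pair of groups overlapped, with means of 0.439 FPKM in knockout cumulus cells and 0.439 FPKM in knockout MGCs. Foxp2 was highest in WT cumulus cells and lowest in knockout MGCs, and every neighbouring pair of groups overlapped. Endothelial markers, at 12.4 to 16.1 FPKM in WT MGCs, summed to 0.276 to 0.931 FPKM in WT cumulus cells, and Tek and Tie1 were at 0 in knockout cumulus cells. The part of these cells in the Hdac5 and Arnt2 levels of MGCs was not tested.

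Within the 6 MGC libraries the 4 members rose and fell together. Pearson's r of log2(FPKM + 1) was 0.990 between Arnt2 and Hdac5, 0.973 between Arnt2 and Foxp2 and 0.918 between Arnt2 and Creb5, the lowest of the 6 pairs. These values hold the genotype difference that chose the members and are given as a description. In the 6 cumulus libraries, r was between -0.05 and 0.35 for the 6 pairs.

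Over all 12 libraries, the genes most like each member in pattern were found among 11097 genes above the filter in both cell types. Libraries of a cell type share their table, and the gap between cell types enters these correlations. Ypel3 (r = 0.994), Pde7b (0.983), a cAMP phosphodiesterase, and Rasl11b (0.982) were most like Arnt2. Ypel3 had means of 8.41, 3.81, 0.826 and 1.08 FPKM in WT MGCs, knockout MGCs, WT cumulus cells and knockout cumulus cells. Gm8113 (0.996), Fads3 (0.995) and Epb41l2 (0.995), a membrane skeleton protein, were most like Hdac5, and Fads3 had means of 27.5, 10.5, 0.854 and 0.564 FPKM in the same groups. Rn7sk (0.927), the small nuclear RNA that holds P-TEFb inactive, Asb4 (0.923) and Reln (0.915) were most like Creb5. The pattern of Foxp2 was matched by mt-Nd6 (0.920), a mitochondrial complex I subunit, and the pseudogenes Rps27a-ps2 (0.905) and Gm15666 (0.903), of which Gm15666 was below 1 FPKM in all group means.

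None of the closest relatives passed the test in MGCs with all 6 libraries. Arnt, the paralogue of Arnt2, was at 9.98 ± 0.405 FPKM in WT against 9.38 ± 0.683 FPKM in knockout MGCs (log2 difference -0.08, 95% interval -0.38 to 0.21, limma adjusted p = 0.889). Whether Arnt2 differed from Arnt in its change was not tested. In cumulus cells Arnt was at 2.26 ± 0.195 and 1.69 ± 0.120 FPKM (log2 difference -0.28, adjusted p = 0.168). Per exon length, the mean level of Arnt was 9.38 FPKM in knockout MGCs, beside 1.87 FPKM for Arnt2.

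Atf2 and Atf7, which share the CREB5 bZIP class, exceeded Creb5 in every group. Atf2 was at 9.90 ± 0.107 FPKM in WT against 8.70 ± 0.509 FPKM in knockout MGCs (limma log2 difference -0.17, adjusted p = 0.723) and at 12.9 ± 1.90 and 10.7 ± 1.78 FPKM in cumulus cells (-0.25, adjusted p = 0.331). Atf7 was at 4.62, 5.04 and 3.35 FPKM in WT against 3.09, 3.39 and 3.31 FPKM in knockout MGCs (-0.31, adjusted p = 0.646). Its WT library 3 was again the lowest. Without library 3 of both genotypes Atf7 passed, at -0.46 and an adjusted p of 0.0438. In cumulus cells Atf7 was at 1.21 ± 0.0639 and 1.12 ± 0.261 FPKM (-0.06, adjusted p = 0.785).

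Foxp4 was the most abundant FOXP gene of MGCs and low in cumulus cells. It was at 22.1, 23.6 and 15.5 FPKM in WT MGCs against 15.0, 16.3 and 33.8 FPKM in knockout MGCs, with knockout library 3 highest, and at 0.0757 to 0.226 FPKM in cumulus cells of both genotypes (6 to 22 reads). In MGCs its log2 difference was 0.01 (limma adjusted p = 0.996) and turned to -0.34 without knockout library 3, to -0.17 without WT library 3 and to -0.52 without library 3 of both genotypes, where the adjusted p was 0.0194. Foxp1 was at 3.92 ± 1.04 FPKM in WT against 3.01 ± 0.842 FPKM in knockout MGCs (-0.30, adjusted p = 0.757). In cumulus cells Foxp1 rose from 0.928 ± 0.0803 to 1.79 ± 0.369 FPKM (0.52, limma adjusted p = 0.0378). Over its 13 alternatives the adjusted p ran from 0.0338 to 0.140, and the call was lost on leaving out any of WT libraries 1, 2 and 3 or knockout libraries 2 and 3. WT cumulus cells thus had 0.0900 FPKM of Foxp4 beside the 3.80 FPKM of Foxp2.

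Of the class IIa deacetylases, Hdac5 had the highest level in WT MGCs. Hdac4 was at 3.95, 3.93 and 4.33 FPKM in WT against 3.35, 3.48 and 5.95 FPKM in knockout MGCs (0.02, limma adjusted p = 0.989), and its sign turned without knockout library 3 (-0.20). Hdac7 was at 3.32, 4.06 and 1.76 FPKM in WT against 2.58, 2.69 and 5.48 FPKM in knockout MGCs (0.17, adjusted p = 0.921), and turned to -0.11 without knockout library 3 and to -0.09 without WT library 3. In cumulus cells Hdac4 was the most abundant of the class, at 2.17 ± 0.115 FPKM in WT against 2.91 ± 0.324 FPKM in knockout (0.30, adjusted p = 0.149), where Hdac5 had 0.174 FPKM in WT. Hdac7 was at 0.273 ± 0.0404 and 0.585 ± 0.241 FPKM there (0.31, adjusted p = 0.183). Hdac9 had 0 to 14 reads in each of the 12 libraries.

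**Figure D3:**
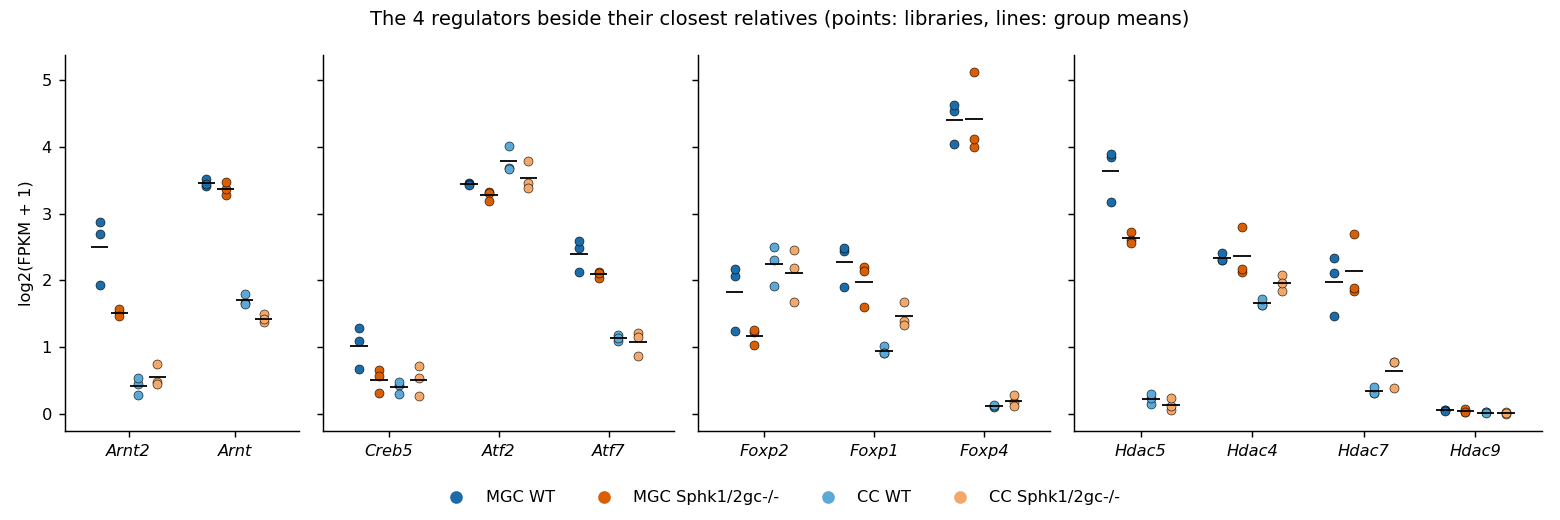
Levels of the 4 regulators and their closest relatives as log2(FPKM + 1) in each library (points) with group means (lines), by cell type and genotype (CC, cumulus cells). Arnt and Atf2 hold close levels in both MGC groups, and Foxp4 and Hdac5 are near 0 in cumulus cells.

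Lists of relatives, partners and targets, with the members left out, were read in the same fits. In MGCs 0 genes of the 9 lists passed (limma, adjusted p up to 0.05) with all 6 libraries, where 0.0327% of all genes tested were lower and 0.00654% were higher by this rule. At an unadjusted p of 0.05 or less there were 2 of 17 forkhead genes, 4 of 27 partners and kinases of class IIa deacetylases, 3 of 19 hypoxia response targets, 2 of 22 early targets of cAMP and CREB, 1 of 6 FOXP2 targets described in neurons, and 0 genes in each of the other 4 lists, against 9.2% of all genes tested. With libraries 1 and 2 of each genotype alone, more genes passed (11.0% lower and 5.07% higher of 15433 genes). Among bHLH-PAS genes 4 of 15 were then lower (Npas4, Per2, Epas1, Ncoa2) and Hif1a was higher. Npas4 entered this test only through the WT group. With all 6 libraries it averaged 0.471 FPKM in WT against 0.0229 FPKM in knockout MGCs and was below the filter. Among partners and kinases of class IIa deacetylases 7 of 27 were lower, Mef2c, Mef2d and the kinase genes Prkd3, Sik1 and Camk2g included, and the kinase gene Camk1d was higher. Among forkhead genes 4 of 17 were lower and 1 was higher, among CREB and ATF genes 2 of 21 and 1, among hypoxia response targets 4 of 19 and 2, among cAMP and CREB targets 6 of 22 and 4, and among FOXP2 targets 1 of 6 and 1. Of 16 deacetylase and sirtuin genes 2 were lower and 0 higher, and of 3 targets of the aryl hydrocarbon receptor 0 passed in either direction.

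The early targets of cAMP and CREB, such as Star and Ptgs2, leaned downwards in MGCs with all libraries. Of 22 genes 18 had a negative log2 difference, with a median of -0.38 against -0.0034 for all genes. Without knockout library 3 the split was 11 negative and 11 positive with a median of -0.02. Star, which carries cholesterol into mitochondria, was at 830 ± 284 FPKM in WT against 293 ± 214 FPKM in knockout MGCs (log2 difference -1.97, SE 0.837, limma adjusted p = 0.547). Ptgs2, the prostaglandin synthase of ovulation, had means of 312 and 280 FPKM, and its difference of -0.94 turned to 0.39 without knockout library 3. In cumulus cells 16 of the 22 were positive, with a median of 0.38 against -0.0563 for all genes, and 2 passed, both higher, where 9.66% of all genes tested were higher. They were Dusp1, a MAP kinase phosphatase that went from 6.53 ± 4.50 to 16.4 ± 4.18 FPKM (1.34, limma adjusted p = 0.0408), and Pde10a, a phosphodiesterase that went from 0.184 ± 0.0443 to 0.824 ± 0.214 FPKM (0.62, limma adjusted p = 0.0188). The calls of Dusp1 and Pde10a were both lost without WT library 1 or 2 or knockout library 2 or 3, and over all alternatives the adjusted p was up to 0.149 for Dusp1 and up to 0.119 for Pde10a. Pde10a entered the test only through the knockout group.

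For the ARNT2 partners, the hypoxia response targets had 14 negative and 5 positive differences in MGCs, with a median of -0.12. Mxi1, a MYC antagonist, had means of 8.54 and 4.41 FPKM in WT and knockout MGCs (log2 difference -0.83, SE 0.278, limma adjusted p = 0.443; 0.0137 without library 3 of both genotypes). Egln3, an oxygen-sensing hydroxylase, had means of 53.7 and 34.5 FPKM (-0.69, limma adjusted p = 0.567). In cumulus cells 4 of 17 fell and 4 rose, where 12.7% of all genes were lower and 9.66% higher. Bnip3, a mitophagy receptor, fell from 233 ± 44.3 to 64.0 ± 16.8 FPKM (-1.86, limma adjusted p = 0.00177), and Slc2a1, a glucose transporter, rose from 13.0 ± 3.23 to 38.7 ± 11.0 FPKM (1.49, adjusted p = 0.00552). The glycolytic genes went both ways, with Hk2 higher at 5.41 ± 1.48 against 16.7 ± 2.39 FPKM (1.48, limma adjusted p = 0.00312) and Pgk1 lower at 573 ± 40.6 against 220 ± 44.2 FPKM (-1.39, adjusted p = 0.00232). The calls of Bnip3, Slc2a1, Hk2 and Pgk1 held in all 13 alternatives. Of 10 bHLH-PAS genes tested in cumulus cells 1 passed, the coactivator Ncoa3 (0.83, limma adjusted p = 0.0127), which lost the call without WT library 1 (adjusted p = 0.0521), without library 3 of both genotypes (0.0831) and without the filter on low values (0.0521). Of 3 targets of the aryl hydrocarbon receptor Tiparp passed in cumulus cells (0.93, limma adjusted p = 0.0272), but not without WT library 1 or 2 or knockout library 2 or 3 (up to 0.0909) or without the filter (0.0966). In MGCs the median difference of the bHLH-PAS family was -0.10 over 14 genes and that of the 3 receptor targets was 0.05. The genes with the largest differences there, among those that averaged 1 FPKM or more, were Ncoa3 (0.38, limma adjusted p = 0.551) and the clock gene Per2 (-0.35, adjusted p = 0.753), and among the receptor targets Tiparp (-0.40, adjusted p = 0.801) and Cyp1b1 (0.22, adjusted p = 0.824).

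Among the relatives and coactivators of CREB5, the median difference was -0.01 in MGCs over 22 genes and 0.09 in cumulus cells over 18 genes, where 1 fell and 2 rose, against 12.7% and 9.66% of all genes. The acetyltransferase Crebbp rose in cumulus cells from 6.02 ± 0.628 to 14.7 ± 1.02 FPKM (1.17, limma adjusted p = 0.00203), a call that held in all 13 alternatives. Creb3l1 rose from 0.455 ± 0.255 to 3.29 ± 1.67 FPKM (1.49, limma adjusted p = 0.0104, up to 0.0536 over the alternatives), a call lost without the filter and without library 3 of both genotypes. It entered the test only through the knockout group, and Creb3l4 only through WT. Creb3l4 fell from 1.06 ± 0.313 to 0.320 ± 0.171 FPKM (-0.64, limma adjusted p = 0.0304), which was lost without WT library 1 or 3 or knockout library 2 or 3 (up to 0.168 over the alternatives). In MGCs the stress factor Atf3 had the largest difference of this list in size, at 13.4 ± 5.56 FPKM in WT against 7.12 ± 4.09 FPKM in knockout (-0.90, limma adjusted p = 0.646; 0.0208 without library 3 of both genotypes).

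Among forkhead genes 2 of 10 fell and 3 rose in cumulus cells, against 12.7% and 9.66% of all genes, and the median was 0.01 in MGCs and 0.07 in cumulus cells. Foxn2 rose from 7.08 ± 0.279 to 14.2 ± 2.38 FPKM (0.90, limma adjusted p = 0.00720), a call lost only without library 3 of both genotypes (adjusted p = 0.0721). Foxf1 averaged 0.0814 FPKM in WT against 1.35 FPKM in knockout (1.04, limma adjusted p = 0.0271), so it passed the filter on low values only through the knockout group. Foxl2, a granulosa identity factor, fell from 2.95 ± 0.419 to 1.80 ± 0.163 FPKM (-0.49, adjusted p = 0.0457). The Foxf1 call was lost without any of WT libraries 1, 2 and 3 or knockout libraries 2 and 3 (up to 0.144 over the alternatives), and the Foxl2 call without WT library 1 or 2 or knockout library 2 or 3 (up to 0.155). In MGCs Foxk2 (0.54, limma adjusted p = 0.543) and Foxm1 (0.49, adjusted p = 0.623) had the largest differences among forkhead genes that averaged 1 FPKM or more. Of 6 FOXP2 targets described in neurons 3 passed in cumulus cells, all higher in knockout. They were the urokinase receptor gene Plaur, which went from 2.79 ± 1.54 to 12.8 ± 5.90 FPKM (1.85, limma adjusted p = 0.0102), the protease gene Ctsb and the receptor gene Met. The count was 1 to 2 when any single library was left out. Ctsb (0.85, limma adjusted p = 0.0347) lost its call without WT library 1 or 2 or knockout library 1 or 3 (up to 0.119 over the alternatives), and Met (0.69, adjusted p = 0.0275) lost it without any of WT libraries 1, 2 and 3 or knockout libraries 2 and 3 (up to 0.0890 with 1 library left out), and also without library 3 of both genotypes or without the filter. Plaur lost its call without the filter (0.0517). Met averaged 0.0508 FPKM in WT against 0.725 FPKM in knockout and entered the test only through the knockout group, and with a filter at 1 FPKM 2 of 3 targets passed. In MGCs Mef2c, which is on this list and encodes a factor that HDAC5 represses, was at 1.86 ± 0.829 FPKM in WT against 0.610 ± 0.0486 FPKM in knockout (-0.78, limma adjusted p = 0.414). It passed without library 3 of both genotypes (-1.05, adjusted p = 0.0141).

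Around HDAC5, 3 deacetylase and sirtuin genes of 14 fell and 2 rose in cumulus cells, against 12.7% and 9.66% of all genes. Sirt5, among those that fell, averaged 0.697 FPKM in WT against 0.268 FPKM in knockout (-0.42, limma adjusted p = 0.0480). It entered the test only through WT. Hdac1, a class I enzyme, fell from 18.0 ± 3.18 to 8.33 ± 0.806 FPKM (-1.02, limma adjusted p = 0.00576), a call lost only without library 3 of both genotypes (adjusted p = 0.0718). Sirt7 rose from 2.03 ± 0.446 to 4.59 ± 0.382 FPKM (0.89, limma adjusted p = 0.00751; 0.0639 without library 3 of both genotypes). The calls of Hdac6, the tubulin deacetylase, which fell (-0.50, limma adjusted p = 0.0302, up to 0.135 over the alternatives), and of Sirt6, which rose (0.48, adjusted p = 0.0499, up to 0.159), were both lost without any of WT libraries 1, 2 and 3 or knockout libraries 2 and 3. Sirt6 passed in 2 of 13 alternatives. In MGCs the median of these genes was -0.02 over 16 genes, and Sirt3 (-0.45, limma adjusted p = 0.634) and Hdac3 (0.24, adjusted p = 0.706) had the largest differences among those that averaged 1 FPKM or more. Of 25 partners and kinases of class IIa deacetylases 1 fell and 3 rose in cumulus cells (against the same shares of all genes), and 19 of the 25 had a positive difference, with a median of 0.19 in cumulus cells and -0.07 in MGCs. Prkd1, a protein kinase D gene, rose from 2.88 ± 0.952 to 12.9 ± 3.46 FPKM (1.84, limma adjusted p = 0.00217), and the 14-3-3 gene Ywhaz rose from 270 ± 55.7 to 663 ± 89.5 FPKM (1.30, adjusted p = 0.00368). Both calls held in all 13 alternatives. Of the CaMK genes, Camk2d rose (0.73, limma adjusted p = 0.0395, up to 0.230 over the alternatives) and Camk2g fell (-0.53, adjusted p = 0.0348, up to 0.206), and both calls were lost without any of WT libraries 1, 2 and 3 or knockout libraries 2 and 3. Beside these cumulus results, 8 granulosa markers summed to 3783 to 4891 FPKM in WT against 2548 to 2904 FPKM in knockout cumulus cells. Of these, 6 had a negative difference and 2 a positive one, Amh and Inha (means of 1630 and 1870 FPKM). The 6 genes listed as cumulus markers summed to 329 to 724 against 1097 to 1356 FPKM. Of these, 4 had a positive difference and 2 a negative one, Npr2 (18.6 and 18.5 FPKM) and Ptgs2 (102 and 96.2 FPKM). The sum of 5 theca markers was 784 to 916 FPKM in WT against 151 to 203 FPKM in knockout, nearly all from Hsd3b1 (757 to 897 against 142 to 198 FPKM). Cyp17a1 had means of 17.9 and 6.60 FPKM, Insl3 was at 0 in every cumulus library, and Ptch1 had a log2 difference of -0.04. By limma (adjusted p up to 0.05), 6 of 8 granulosa and 2 of 3 tested theca markers were lower and 0 higher. Of 6 cumulus markers 3 were higher and 0 lower. Of all genes tested, 12.7% were lower and 9.66% higher. Their part in the list results was not tested. In MGCs Prkd1 was at 8.16 ± 2.80 FPKM in WT against 4.70 ± 1.93 FPKM in knockout (-0.69, limma adjusted p = 0.587).

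**Figure D4:**
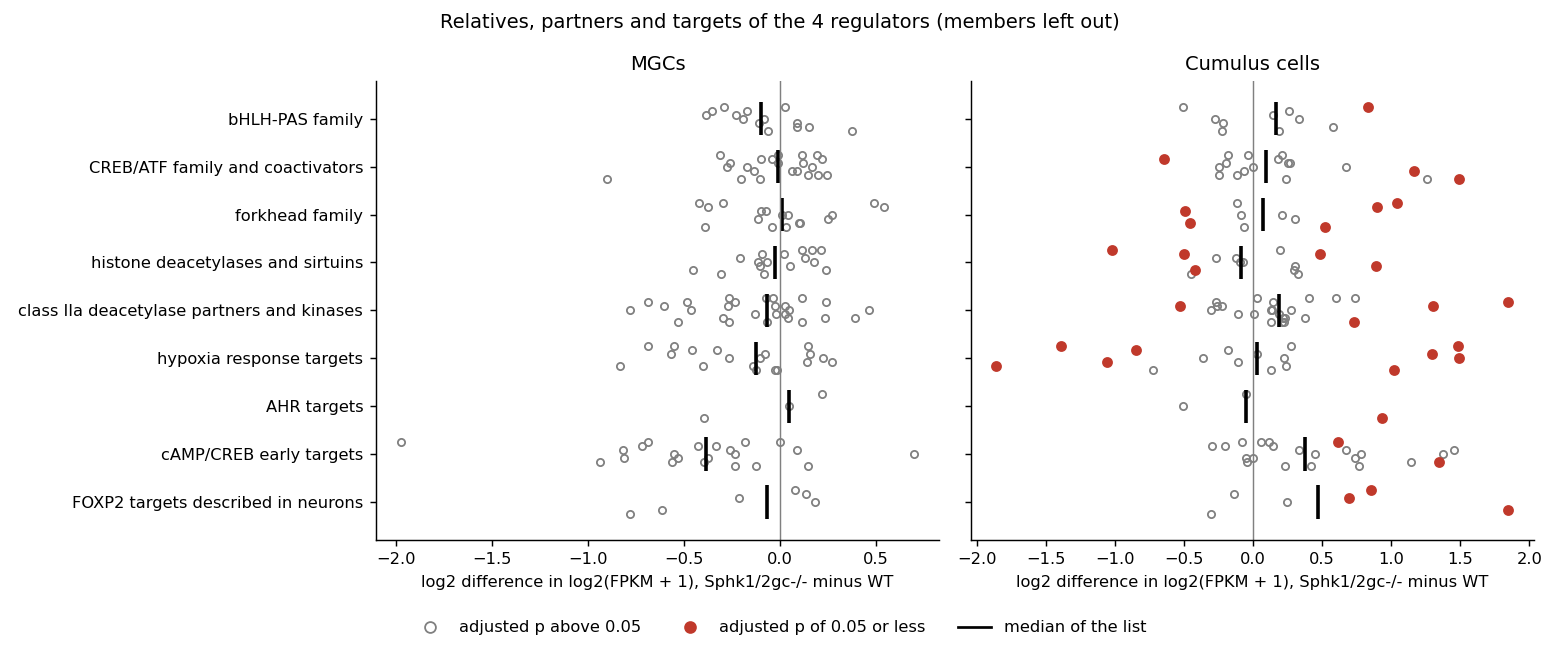
Difference in log2(FPKM + 1) between Sphk1/2gc-/- and WT cells for the genes of 9 lists (points) with the median of each list (lines), in MGCs and cumulus cells, filled where the adjusted p was 0.05 or less. No gene of the lists is filled in MGCs, and the cAMP and CREB targets have their median at -0.38 in MGCs and at 0.38 in cumulus cells.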

How the data were processed

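RNA was sequenced from MGCs and cumulus cells (12 libraries). FPKM tables were deposited by the authors, 1 per cell type with 29101 genes (MGCs) and 33137 genes (cumulus cells). The submitters' processing notes name HISAT2 and GRCm38, and the counting tool and annotation are not given in the sources used here. Symbols and exon lengths were taken from GENCODE M21. Scaled by exon length, 90.6% to 92.1% of the FPKM values above 0 were whole multiples of 1 read (tolerance 0.02 reads), which gave the reads. A floor of 3 reads and 95% intervals cover counting error only. FPKM values are no counts, so limma 3.58.1 (R 4.3.3) was fitted with a variance trend to log2(FPKM + 1), per cell type, on genes that averaged 0.5 FPKM or more in either genotype. Genes passed at a p of 0.05 or less after Benjamini-Hochberg adjustment, and called genes also had a fold change of 2. The fit was run on simulated data as a check of the code. These held larger changes and a smaller spread than the members show, so the run does not measure power in these libraries. Reads, correlations and motifs were computed in Python 3.11.15 with pandas 2.3.3 and scipy 1.17.1.

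The members, lists and markers were chosen with earlier results of these data known. Named genes were the members, Sphk1 and Sphk2, the closest relatives, up to 4 genes per list and cell type with the largest change among those that passed (otherwise up to 2 with a mean of at least 1 FPKM), and the 3 genes most correlated with each member. Samples were grouped by the genotype and cell type in the labels. Same-numbered MGC libraries deviated together (r = 0.220, 0.158 and 0.224 for numbers 1 to 3). WT library 1 and knockout library 2 did so too (r = 0.155), so the values are only a hint that the numbers pair libraries. The main fits held no block, and the replicate block was run as an alternative. The alternatives were another pseudocount (0.1), other filters, quantile normalization, no trend, a replicate block and libraries left out.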

Additional observations from a re-analysis of the deposited data

How the results depend on the processing

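The differences of the 4 members in MGCs stayed negative in every alternative run, which is no support, since the members were picked as lower there. Arnt2, Creb5 and Hdac5 had no overlap between genotypes, so leaving out libraries could not turn their sign. Most values moved by less than the replicate SD. With a pseudocount of 0.1, Creb5 in MGCs moved to -1.08, and Arnt2 and Hdac5 in cumulus cells to 0.37 and -0.43. With single libraries left out, MGC differences ranged from -1.26 to -0.79 for Arnt2, -0.67 to -0.36 for Creb5, -0.94 to -0.47 for Foxp2 and -1.24 to -0.88 for Hdac5. In cumulus cells they ranged from 0.04 to 0.19 for Arnt2, 0.0015 to 0.23 for Creb5, -0.31 to 0.075 for Foxp2 and -0.13 to -0.05 for Hdac5. Foxp2 reversed to 0.075 without knockout library 1, and its adjusted p stayed above 0.05 in every alternative.

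The count of genes called in MGCs was not stable. From 6 it moved to 1 without a filter, 1 with quantile normalization, 3 with the replicate block, 0 to 170 with single libraries left out (0 without WT library 1, WT library 2 or knockout library 2, 1 without WT library 3, 2 without knockout library 1 and 170 without knockout library 3) and 477 without library 3 of both genotypes (191 higher, 286 lower). At an unadjusted p of 0.05 or less there were 1406 genes. In cumulus cells it moved from 981 to 1674 with a pseudocount of 0.1 and to 2725 with the adjusted p alone, and was 757 to 1305 with single libraries left out. There the numbers did not pair the libraries (r = -0.148, -0.0511 and 0.115), and a replicate block gave 962 calls. The block changed no call for the members, and among the other named genes the cumulus calls of Camk2d, Camk2g, Foxl2, Foxp1, Hdac6 and Sirt6 did not pass with it (adjusted p of 0.0702 to 0.0909).

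Of the genes that the naming rule took, 7 of the 26 that passed in cumulus cells did so in all 13 alternatives and 19 lost the call in at least 1. Reversed values in MGCs were Foxp4 (-0.17 without WT library 3, -0.34 without knockout library 3, -0.52 without both, 0.22 at the highest without knockout library 1), Hdac4 (0.00 without WT library 2, -0.20 without knockout library 3, -0.16 without both libraries 3, highest 0.14), Hdac7 (-0.09, -0.11 and -0.36 for the settings given for Foxp4, highest 0.35), Ptgs2 (0.39 without knockout library 3, 0.29 without both, lowest -1.67), Tiparp (0.063 without knockout library 3, lowest -0.63) and Cyp1b1 (-0.11 without both libraries 3). In cumulus cells Atf7 reversed to 0.042 without knockout library 1. The cause of these changes was not tested. Among the 4 members, Hdac5 in cumulus cells had the fewest reads, at 8 to 36 per library.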

Other observations

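The span of the members on the genome is 163.9 kb for Arnt2, 413.1 kb for Creb5, 540.6 kb for Foxp2 and 35.7 kb for Hdac5, and 94.9%, 99.1%, 99.6% and 69.5% of 15258 genes tested in MGCs with a GENCODE span were shorter. In MGCs the 277 genes with a span of 300 kb or more, the class of Creb5 and Foxp2, had a median difference of -0.15 on the log2(FPKM + 1) scale. Of them 72.6% were negative, and the median over all genes was -0.0034. The class of Arnt2, from 100 to 300 kb, had a median of -0.055 (58.6% negative). That of Hdac5, from 30 to 100 kb, had 0.025 (45.2% negative). Genes from 10 to 30 kb had 0.032, and shorter ones had -0.036 (54.7% negative). The class of 300 kb or more had a median of -0.18 without knockout library 3, where the median of all genes was -0.09. In cumulus cells its median was -0.0064 over 208 genes, against -0.0563 for all genes. Genes of a class share libraries and are not independent replicates, and no test was run.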
